A study of Drosophila melanogaster with 24 samples.

Results

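Non-stop is the ubiquitin protease of the deubiquitinase module of SAGA, a coactivator complex built from separate modules, and the regions described here carried Non-stop and RNA polymerase II (Pol II) but no called peak of the 3 other SAGA subunits that were mapped. They were chosen from chromatin immunoprecipitation sequencing (ChIP-seq) peak lists in 3 steps. Non-stop peaks that overlapped a peak of the other Non-stop library by at least 1 bp were kept and merged into 7051 regions. Regions that overlapped any peak of any Ada2b, Spt3 or Sgf11 library were then left out, and a peak in both Pol II libraries was required. This left 1263 regions, 17.9% of all 7051 Non-stop regions, called SAGA-free Pol II regions for short. The name means that no peak of Ada2b, Spt3 or Sgf11 was called, and says nothing of other SAGA subunits. The regions most like them are the 3984 Non-stop regions that had Pol II in both libraries and a peak in at least 1 library of Ada2b, Spt3 or Sgf11, called SAGA-carrying Pol II regions. The rule used the presence and absence of peaks, so the presence of Pol II and the lack of the 3 subunits are descriptions and not results.

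All libraries came from Drosophila melanogaster embryos aged 1 to 3 h (stage 4 to 6), with no treatment, and each group is one antibody. Non-stop had 2 ChIP libraries (1924_1 and 1924_2), Pol II had 2 (1188_2 and 1632_1), Ada2b had 4, Spt3 had 3 and Sgf11 had 3, and 10 total chromatin samples were not analysed here on their own. The Non-stop antibody was raised against residues 178 to 496 of the protein, and the Pol II antibody (4H8) recognises the repeats of the C-terminal domain of the largest subunit. Whole embryos were used, so a region can carry Non-stop in some cells and a second factor in others. The labels do not say what the first number in a library name means. Non-stop shares this number with the Sgf11 library 1924_2 and with no Ada2b, Spt3 or Pol II library. The antibody and whatever this number stands for cannot be told apart for those factors.

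SAGA carries 2 enzymes. The acetyltransferase module, which contains Ada2b, acetylates histone H3 through Gcn5, and the deubiquitinase module, in which Sgf11 links Non-stop to its partners, removes ubiquitin from histone H2B. Spt3 belongs to a further module that contacts the TATA-binding protein. H2B ubiquitin is laid down during transcription, and in yeast its removal by Ubp8, the relative of Non-stop, is tied to the passage of Pol II into the transcribed region.

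The lists held between 1563 and 12073 peaks and covered between 0.673 and 17.5 Mb. They contain no reads, so the depth of each library is unknown, and lack of a peak means only that the caller found nothing past its limit. The lowest −log10 q in a list lay between 2.01 and 2.29. Non-stop gave 8558 peaks in 1924_1 and 12073 in 1924_2, against 1563 to 6787 peaks in the Ada2b, Spt3 and Sgf11 lists, so Non-stop was called at more places than any of the subunits whose absence is at issue. The part of this difference in the choice of regions was not tested. Nothing in the labels says that libraries of one factor came from separate embryo collections, so the spread between them may be technical. Coordinates are 1-based in the dm3 build. Genes and base sequences at the regions were not analysed here.

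Pol II was frequent at Non-stop regions both without and with a subunit peak. Of all 7051 Non-stop regions, 74.4% had Pol II in both libraries and 21.9% had no peak of Ada2b, Spt3 or Sgf11. Of the 1541 regions without a subunit peak, 1263 had Pol II in both libraries (82.0%, 95% Wilson interval 79.96 to 83.8%), 143 in 1 library and 135 in none. Of the 5510 regions with a subunit peak, 3984 had Pol II in both (72.3%, 71.1 to 73.5%), 643 in 1 library and 883 in none. Wilson intervals here and below cover counting error over regions only, and regions are not replicates. The first share was 9.65 percentage points above the second, and the order depended on the Non-stop library. With regions from Non-stop 1924_2 alone the shares were 62.9% without and 66.2% with a subunit peak, a difference of -3.29 points, and with regions from 1924_1 alone they were 78.2% and 71.3%. Where a single Pol II list was required, the shares were 90.3% without and 83.8% with a subunit peak for 1188_2, and 82.9% and 72.5% for 1632_1.

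Among regions with Pol II in both libraries, 24.1% had no subunit peak. The number of the 10 Ada2b, Spt3 and Sgf11 libraries with a peak did not fall off evenly from there. Next to the 1263 regions with 0 libraries there were 217 regions with 1 library, 188 with 2 and 293 with 3, and the commonest count among the others was 5 libraries, at 673 regions. Peaks in all 10 libraries were found at 467 regions. Regions that carried a single one of the 3 factors were fewer than those with none, with 166 regions for Sgf11, 118 for Spt3 and 58 for Ada2b.

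The SAGA-free Pol II regions had weak Non-stop peaks, as had the other Non-stop regions without a subunit peak. Strength was measured by the peak score of the caller, ranked as a percentile within its list, so that lists of unequal size could be set side by side. In Non-stop 1924_1 the median percentile was 28.8 in SAGA-free and 66.1 in SAGA-carrying Pol II regions, and in Non-stop 1924_2 it was 27.7 in SAGA-free and 77.9 in SAGA-carrying Pol II regions. The difference was -37.3 percentile points in 1924_1 and -50.2 in 1924_2, a mean of -43.8 ± 9.10 (SD, n = 2). An exact two-sided sign-flip permutation test over the 2 libraries gave p = 0.5, the smallest value that 2 libraries allow, so the difference cannot pass a threshold in this design although both libraries gave the same direction. The median fold enrichment at the summit was 2.32 in SAGA-free and 3.93 in SAGA-carrying Pol II regions in 1924_1, and in 1924_2 it was 2.28 in SAGA-free and 5.63 in SAGA-carrying Pol II regions. Low ranks were not particular to regions with Pol II. At the 135 regions with neither a subunit peak nor Pol II, the median percentiles were 31.3 in 1924_1 and 36.9 in 1924_2. At the 143 regions without a subunit peak and with Pol II in 1 library they were 16.9 and 24.8. At the 883 regions with a subunit peak and no Pol II they were 72.4 and 73.6.

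**Figure D1:**
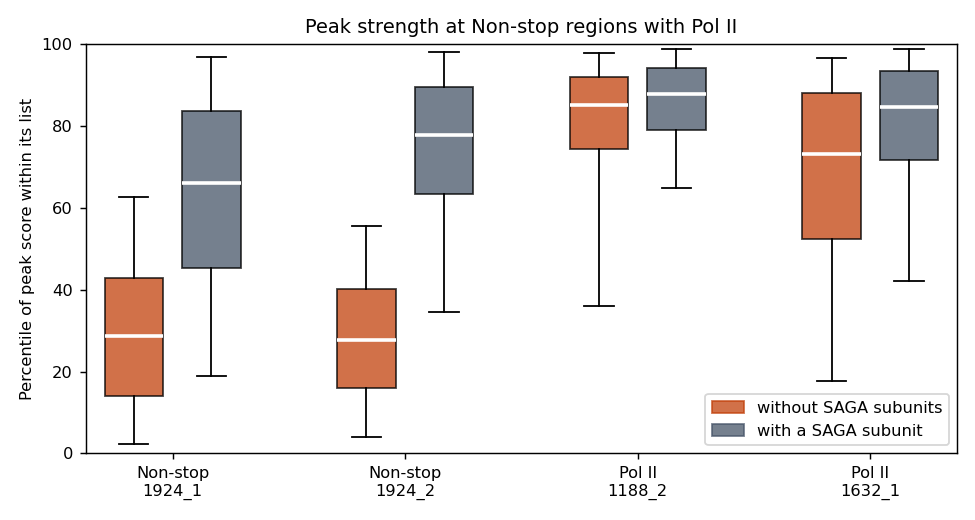
Percentile of the peak score within its list (vertical axis) at the 1263 regions without SAGA subunits (orange) and the 3984 regions with a SAGA subunit (grey), for each Non-stop and Pol II library; white lines are medians, boxes span the central 50% of regions and whiskers run from the 5th to the 95th percentile of regions. Non-stop peaks ranked lower in the regions without SAGA subunits in both libraries, with medians of 28.8 and 27.7, while the Pol II medians were 85.2 and 73.2.

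The Pol II peaks that covered these regions ranked high in their lists, but their summits mostly lay elsewhere. The median Pol II percentile in 1188_2 was 85.2 in SAGA-free and 87.9 in SAGA-carrying Pol II regions, and in 1632_1 it was 73.2 in SAGA-free and 84.7 in SAGA-carrying Pol II regions. The differences were -2.69 and -11.4 points, a mean of -7.06 ± 6.18 (SD, n = 2; exact sign-flip permutation p = 0.5, again the smallest possible). The spread between the libraries was nearly as large as this mean. The median Pol II fold enrichment was 9.06 in SAGA-free and 9.49 in SAGA-carrying Pol II regions in 1188_2, and 3.23 in SAGA-free and 4.53 in SAGA-carrying Pol II regions in 1632_1. A score belongs to the summit of the Pol II peak, which lay inside the region itself in 12.9% of SAGA-free Pol II regions in 1188_2 and 35.3% in 1632_1. At the 127 regions that held a Pol II summit of both libraries, the median percentiles were 49.4 in 1188_2 and 52.6 in 1632_1.

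The lack of a subunit peak followed the strength of Non-stop closely. Regions with Pol II in both libraries were divided into 5 classes by the mean Non-stop percentile of the 2 libraries. Below percentile 20, 411 of 478 regions (86.0%) had no subunit peak, and between 20 and 40 this held for 543 of 895 (60.7%). Between 40 and 60 it held for 271 of 1163 (23.3%), and between 60 and 80 for 37 of 1294 (2.86%). Above percentile 80, 1 of 1417 regions (0.0706%) had no subunit peak. Strong Non-stop binding at Pol II regions was therefore almost never called without Ada2b, Spt3 or Sgf11, and the number of regions without them depended on the length of the Non-stop lists. With equally long Non-stop lists, the strongest 8558 peaks of each, 600 such regions were left.

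**Figure D2:**
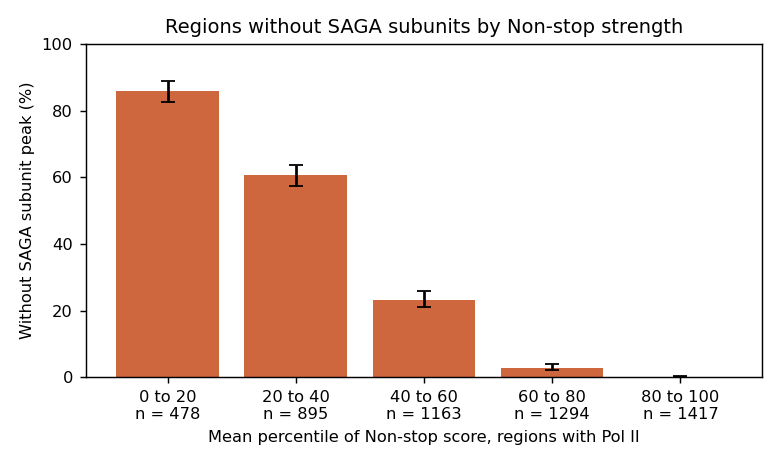
Share of Non-stop regions with Pol II in both libraries that had no Ada2b, Spt3 or Sgf11 peak (vertical axis, %), by the mean percentile of the Non-stop score over both libraries (horizontal axis); error bars are 95% Wilson intervals and n is the number of regions. The share was 86.0% in the weakest class and 0.0706% in the strongest.

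The ranking of these regions was less alike between libraries. The log2 fold enrichment of Non-stop in 1924_1 and 1924_2 had a Pearson correlation of 0.570 and a Spearman correlation of 0.513 across the 1263 SAGA-free Pol II regions, against 0.847 and 0.854 across the 3984 SAGA-carrying ones. These describe regions of the same libraries, which are not independent, and the weaker regions span a smaller range of values. Non-stop peaks of a single library were frequent at places of the same kind. In 1924_1, 917 of 8558 peaks (10.7%) had no counterpart in 1924_2, and 498 of the 917 (54.3%) lay free of subunit peaks and on Pol II in both libraries. In 1924_2, 4570 of 12073 peaks (37.9%) had no counterpart, of which 1217 (26.6%) lay free of subunit peaks and on Pol II. If a peak in 1924_2 alone is enough, the number of SAGA-free Pol II regions becomes 2757, and if a peak in 1924_1 alone is enough, it becomes 2010.

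The merged regions were broad. Their median width was 767 bp and they spanned 215 to 6821 bp, against a median of 547 bp in SAGA-carrying Pol II regions and 320 bp in the 135 Non-stop regions with neither a subunit peak nor Pol II. Each region joins the overlapping peaks of both libraries. In 1924_1, 13.4% of SAGA-free Pol II regions held 2 or more Non-stop peaks, against 7.88% of SAGA-carrying ones, and in 1924_2 the shares were 14.9% and 3.89%. The regions were also broader at matched strength. Between Non-stop percentiles 20 and 40 the median width was 831 bp at 543 SAGA-free Pol II regions and 436.5 bp at 352 SAGA-carrying ones. With a single Non-stop list the rule gave other and larger sets. Their median width was 402 bp at 2010 regions from 1924_1 and 365 bp at 2757 regions from 1924_2. Over all Non-stop peaks the medians were 362 bp in 1924_1 and 374 bp in 1924_2. The regions of these larger sets were thus about as wide as Non-stop peaks at large. The widths of the single peaks inside the merged regions were not measured.

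The Non-stop summits of these regions lay away from the Pol II summits. Each Non-stop library was paired with each Pol II library, which gave 4 sets of distances between the summit of the Non-stop peak and that of the Pol II peak it overlapped. The median distance was 920 to 2129 bp over the 4 sets in SAGA-free Pol II regions, against 138 to 163 bp in SAGA-carrying Pol II regions. The Non-stop summit was within 250 bp of the Pol II summit in 9.34 to 25.7% of SAGA-free and 64.3 to 70.3% of SAGA-carrying Pol II regions. The ranges of the classes did not overlap in either measure. The 4 sets share libraries, so no test was made on them. Regions of both classes can overlap the same Pol II peak and are then measured from the same summit, so their distances are not independent. The contrast was one of summits. Between the centres of the Non-stop and Pol II peaks the medians were 480 to 1045 bp in SAGA-free and 297 to 846 bp in SAGA-carrying Pol II regions, and these ranges overlapped.

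**Figure D3:**
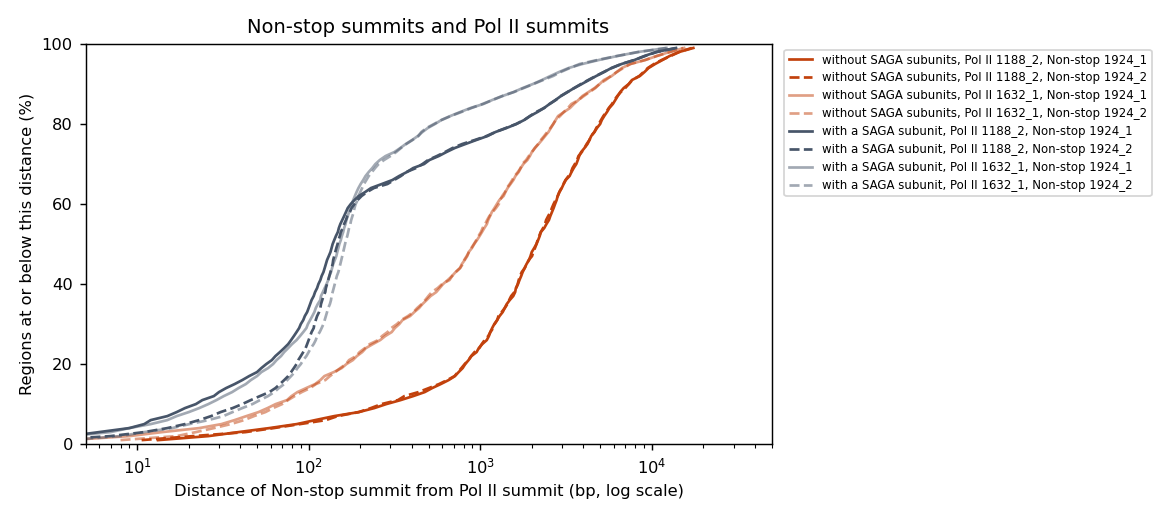
Cumulative share of regions (vertical axis, %) by the distance of the Non-stop summit from the Pol II summit (horizontal axis, bp, log scale), for regions without SAGA subunits (orange) and with a SAGA subunit (grey); full and broken lines are Non-stop 1924_1 and 1924_2, and dark and pale lines are Pol II 1188_2 and 1632_1. The medians lie between 920 and 2129 bp for the regions without SAGA subunits and between 138 and 163 bp for the others.

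Pol II 1188_2 placed the regions farther from its summits than Pol II 1632_1, with medians of 2129 bp for both Non-stop libraries against 923 bp (1924_1) and 920 bp (1924_2). The Pol II peaks at these regions were also longer in 1188_2, with a median of 6034 bp against 2809 bp in 1632_1. The distance was large at matched strength and at matched domain width too. Between Non-stop percentiles 20 and 40 the medians were 875 to 2070 bp in SAGA-free and 273 to 747.5 bp in SAGA-carrying Pol II regions. In Pol II domains of 5 to 10 kb they were 1047.5 to 2608 bp in SAGA-free and 171 to 342 bp in SAGA-carrying Pol II regions.

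Most of these regions lay wholly inside a Pol II peak, namely 86.1% in 1188_2 and 65.3% in 1632_1, against 66.8% and 31.8% of SAGA-carrying Pol II regions. Their Non-stop summits fell in the central 50% of the Pol II peak in 54.6 to 58.7% of cases over the 4 sets of libraries. At SAGA-carrying Pol II regions this held for 27.2 to 40.3%, and their summits were most frequent near the ends of the Pol II peak. At matched strength, between Non-stop percentiles 20 and 40, the gap was smaller, with 54.0 to 58.4% in SAGA-free and 43.2 to 52.8% in SAGA-carrying Pol II regions. The direction of transcription was not used, so the ends of a Pol II peak are left and right ends on the chromosome.

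**Figure D4:**
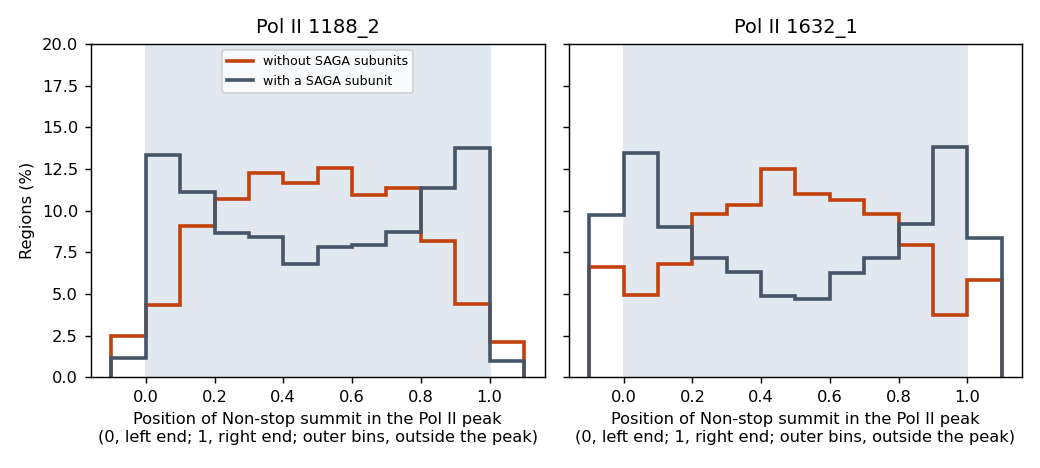
Position of the Non-stop 1924_1 and 1924_2 summits along the Pol II peak they overlap (horizontal axis, 0 at the left and 1 at the right end, outermost bins for summits outside the peak) as shares of regions averaged over both Non-stop libraries (vertical axis, %), for Pol II 1188_2 and 1632_1. Regions without SAGA subunits (orange) were most frequent in the centre of the Pol II peak, and regions with a SAGA subunit (grey) near its ends.

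A Pol II summit lay inside the region itself for 163 of the 1263 SAGA-free Pol II regions (12.9%) in 1188_2 and for 446 (35.3%) in 1632_1. In SAGA-carrying Pol II regions the shares were 72.0% and 76.9%. Both libraries placed a Pol II summit inside 127 SAGA-free (10.1%) and 2658 SAGA-carrying regions (66.7%). The summit of the Pol II peak that covered a SAGA-free region lay instead in a SAGA-carrying Non-stop region for 924 regions (73.2%) in 1188_2 and 520 (41.2%) in 1632_1.

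Subunits of SAGA were usually close by. The nearest Ada2b, Spt3 or Sgf11 peak was a median of 1280 bp from the edge of a SAGA-free Pol II region, 548 regions (43.4%) had one within 1 kb and 1131 (89.5%) within 5 kb. The 135 Non-stop regions with neither a subunit peak nor Pol II had a median distance of 3904 bp, with 12.6% within 1 kb and 55.6% within 5 kb. The nearest subunit was Sgf11 for 741 regions (58.7%), Spt3 for 333 (26.4%) and Ada2b for 183 (14.5%), with equal distances at 6. The Sgf11 lists held 4972 to 6787 peaks, the Spt3 lists 2025 to 6311 and the Ada2b lists 1563 to 5446, and the part of list length in this order was not tested. The median distance was 2085 bp when taken between summits. When only reproducible subunit peaks counted as SAGA, the rule gave 1721 regions. Their median distance was 705 bp, still taken to any subunit peak, also to non-reproducible peaks that overlapped them. The distance to reproducible peaks alone was not measured. When subunit peaks within 500 bp were not allowed, 988 regions were left, at a median of 1762 bp.

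The regions shared their Pol II domains with SAGA. Pol II peaks of both libraries were merged into 11619 domains, of which 899 (7.74%) held at least 1 SAGA-free Pol II region. Of the 1263 regions, 969 (76.7%, 74.3 to 79.0%) lay in a domain that also held a SAGA-carrying Non-stop region, and 1010 (79.97%) in a domain with any subunit peak. Of all 11619 domains, 3631 (31.3%) held a SAGA-carrying Non-stop region, and of the 899 domains with a SAGA-free Pol II region, 595 (66.2%) did. These counts do not allow for the length of the domains. The domain was built from both Pol II lists, and the share of regions depended on them. With domains from Pol II 1632_1 alone it was 46.2%. Among the 969 regions, 318 (32.8%) lay between SAGA-carrying Non-stop regions of their domain and 651 (67.2%) had them on 1 side only.

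Domains with such a region were long. Their median width was 4743 bp, against 1395 bp for domains with a SAGA-carrying Non-stop region alone and 403 bp for domains with neither. Among domains that held a SAGA-carrying Non-stop region, a SAGA-free Pol II region was present in 13 of 1914 domains shorter than 2 kb (0.679%), in 183 of 1010 between 2 and 5 kb (18.1%) and in 244 of 482 between 5 and 10 kb (50.6%). It was present in 134 of 194 domains between 10 and 20 kb (69.1%) and in 21 of 31 longer ones (67.7%). The number of regions per 100 kb of domain was 0.733 below 2 kb, 6.67 from 2 to 5 kb, 11.3 from 5 to 10 kb, 11.3 from 10 to 20 kb and 8.37 above. The number per length thus did not keep rising above 10 kb.

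Many of the regions had another of their kind nearby. A single one was present in 619 of the 899 domains, 2 in 181 and 3 or more in 99, and the most in any domain was 8. Another SAGA-free Pol II region lay within 5 kb of 736 regions (58.3%), at a median distance of 3076 bp. The nearest SAGA-carrying Pol II region was at a median of 2475 bp and within 5 kb of 986 regions (78.1%). Among the 3984 SAGA-carrying Pol II regions, 2191 (55.0%) had another such region within 5 kb, at a median distance of 4245.5 bp. The number of regions differs between these classes, and no test of the spacing was made.

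The domain with 8 regions lay on 3R from 4647386 to 4684177 and was 36.8 kb long. It also held 4 SAGA-carrying Non-stop regions. The Pol II 1188_2 summit fell inside the strongest of these, with a mean Non-stop percentile of 93.5, and 9 of the 10 Ada2b, Spt3 and Sgf11 lists had a peak there. The 8 SAGA-free regions had mean Non-stop percentiles of 6.23 to 49.8 and lay 2.97 to 20.3 kb from this summit, 7 of them on one side, and 2 of them adjoined without overlap. The next domains by this count were on 2R from 7464941 to 7482217 and from 8461167 to 8480581, with 7 SAGA-free regions each.

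For a smaller number of regions, 253 (20.0%), the Pol II domain held no Ada2b, Spt3 or Sgf11 peak at all. Some of these 253 regions shared such a domain with each other. Their median domain width was 1977 bp, against 7940 bp for the 969 regions that shared a domain with a SAGA-carrying Non-stop region, and their median width was 634 bp against 818 bp. The Non-stop summit was closer to the Pol II summit, with medians of 212 to 394 bp over the 4 sets of libraries against 1174 to 2693 bp. Pol II was weaker at them, with median percentiles of 49.3 (1188_2) and 50.7 (1632_1) against 88.1 and 79.7. Non-stop strength was near that of the others, with median percentiles of 26.1 against 29.9 in 1924_1 and 28.5 against 28.0 in 1924_2. The groups were split by the subunit peaks of the domain, and the part of domain length in these differences was not tested.

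On the chromosomes, SAGA-free Pol II regions made up 13.8% of the 1149 Non-stop regions of the X (159 regions, 11.96 to 16.0%), against 19.3% of the 5495 on 2L, 2R, 3L and 3R (1063 regions, 18.3 to 20.4%). The share on single autosome arms ran from 18.3% on 3L to 21.0% on 2R. Chromosome 4 had 30 such regions among 161 (18.6%, 13.4 to 25.4%). Only 11 of 246 Non-stop regions off these arms (4.47%) were of this kind. Among Non-stop regions with Pol II the share was 19.5% on the X (16.9 to 22.4%), 25.0% on the autosome arms (23.7 to 26.3%), 32.3% on chromosome 4 (30 of 93, 23.6 to 42.3%) and 13.1% off these arms (11 of 84).

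The strongest of the regions by Non-stop was on 3L from 3071736 to 3072098. Its Non-stop fold enrichment was 8.99 in 1924_1 and 8.38 in 1924_2, at a mean percentile of 92.4, the single region above percentile 80. The Pol II peaks that covered it had fold enrichments of 11.5 in 1188_2 and 6.96 in 1632_1, at summits outside the region. The Non-stop summit was on average 1159.5 bp from the Pol II summit in 1188_2 and 1178.5 bp in 1632_1. A subunit peak was 198 bp from the region. A further SAGA-free region lay in the same 3814 bp domain, from 3072247 to 3072630, with Non-stop fold enrichments of 3.92 and 5.19.

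The second strongest, on 2L from 18563017 to 18563470, was alone in a domain without a subunit peak. Its Non-stop fold enrichment was 4.89 in 1924_1 and 7.25 in 1924_2, the nearest subunit peak was 26659 bp away, and its Pol II domain was 426 bp long. The Non-stop summit was on average 61 bp from the Pol II summit in 1188_2 and 69 bp in 1632_1. The third, on 3L from 3417735 to 3418172, was also alone in a domain of 1332 bp without a SAGA-carrying Non-stop region, with Non-stop fold enrichments of 4.19 and 5.66 and a Non-stop summit on average 11 bp from that of Pol II. These regions had compact Non-stop and Pol II peaks at one point and no subunit peak within 6 kb.

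The other regions among the 10 strongest were on 2L (248106 to 248541, 10399109 to 10403730 and 211954 to 216244), 3L (14745646 to 14747130 and the neighbour named above), X (6772672 to 6774243) and 3R (14233036 to 14235038). Their mean Non-stop percentiles were between 65.7 and 69.5. Each shared its Pol II domain with a SAGA-carrying Non-stop region. The 2 regions at 211954 and 248106 on 2L lay in one domain of 43248 bp.

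The 5 regions with the strongest Pol II had mean Pol II percentiles of 98.8 to 99.2 and Non-stop percentiles of 12.7 to 35.0. The first of them, on 3R from 4642861 to 4643258, had Pol II fold enrichments of 11.7 in 1188_2 and 8.71 in 1632_1 and Non-stop fold enrichments of 2.51 in 1924_1 and 1.96 in 1924_2. The others were on 2R (10510715 to 10511117, 15542227 to 15542653 and 2704800 to 2705481) and X (8306384 to 8307006). In all 5 the mean distance of the Non-stop from the Pol II summit was over 1.7 kb in both Pol II libraries, and all 5 shared their domain with a SAGA-carrying Non-stop region.

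The widest region ran over 6821 bp on 2L from 8491 to 15311, at Non-stop fold enrichments of 3.76 in 1924_1 and 3.91 in 1924_2. The next were 6480 bp on 2R (8043092 to 8049571) and 4840 bp on 3L (3227996 to 3232835). All 3 lay in Pol II domains of over 10 kb. The regions farthest from a subunit peak were narrow and stood in narrow domains. They were on X from 14642924 to 14643481 (46605 bp away, in a domain of 914 bp), on 2L from 5658381 to 5658738 (33942 bp, 490 bp) and on 3L from 5211206 to 5211561 (33300 bp, 616 bp).

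The rule has a sharp edge, and 22 of the regions lay within 100 bp of a subunit peak. Just inside it were regions on 3R from 5336412 to 5337882, 1 bp from such a peak, on 3R from 12866872 to 12867513 at 8 bp and on 2R from 4016084 to 4016922 at 10 bp. Their mean Non-stop percentiles were 41.9, 9.65 and 21.2. Just outside were Non-stop regions with Pol II on 3L from 3813112 to 3813860, which overlapped a subunit peak by 1 bp, on 2L from 10768228 to 10769326 by 2 bp and on 4 from 63531 to 64059 by 15 bp. Each of these was touched by 1 of the 10 subunit libraries, and their mean Non-stop percentiles were 35.3, 11.7 and 18.5.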

How the data were processed

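Peak lists of 14 ChIP-seq libraries were used, 1 list for each library. Reads were aligned to dm3 with Bowtie and peaks called with MACS2 by the authors, according to the study's methods, which name Ada2b, Spt3 and Sgf11. The steps for Non-stop and Pol II, and the control of peak calling, are not given in the sources used here. The submitters' processing notes also name CASAVA 1.8.2.

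For each peak the deposited score is a whole number, 10 times −log10 q. The authors' fold enrichment compares ChIP with local background at the summit and is a ratio. MACS2 also gave the deposited p and q, both as −log10. No list held reads, so the depth is unknown.

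Overlap of 1 bp counted as shared. Interval code was written in Python 3.11.15 (NumPy 2.4.6, SciPy 1.17.1, matplotlib 3.10.9), checked against bedtools 2.31.1 and tested on simulated lists. Where several peaks of a library overlapped a region, the highest score and the highest fold enrichment were taken, with the summit of the peak of highest score. Differences of median percentile were tested by exact two-sided sign-flip permutation over libraries. Named regions were the 10 strongest by Non-stop and 5 strongest by Pol II (on 2L, 2R, 3L, 3R, 4 or X), the 3 widest, the 3 farthest from and 3 nearest to a subunit peak, and the 3 left out for the smallest overlap. The regions, lists and tests were chosen with earlier results of these data known. Alternatives covered the overlap, the gap to subunit peaks, peak thresholds, list length, merging, chromosomes and each library in turn. Genes and sequence motifs were planned for and not analysed, since no annotation of dm3 was used here.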

Additional observations from a re-analysis of the deposited data

How the results depend on the processing

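Over 9 results, 237 alternative values were computed. The limits were 1.5 times for the count, the same direction for strength differences, and the interval for shares, widths and subunit distances. No interval was made for the summit distance, and its limit was 1 SD of the 4 library-pair medians (697 bp). By this wide limit 904 and 1923 bp both counted as unchanged. In all, 198 values stayed within these limits, 38 moved further and 1 changed direction. That one was the difference in the share with Pol II between regions without and with a subunit peak, which was 9.65 points and became -3.29 points without Non-stop 1924_1. This difference was added after seeing the data, and was otherwise between 4.39 and 13.2 points. With 1 library left out it was at most 10.5 points. The number of SAGA-free Pol II regions was 600 with equally long Non-stop lists. It was 2060 when only Sgf11 1924_2 stood for SAGA and 217 when a Pol II summit had to lie within 250 bp in both libraries; both rules were chosen after seeing the data. It was 1721 when only reproducible subunit peaks counted. The share of subunit-free regions with Pol II was 78.7% with overlap of at least 50% of either interval. It was 79.5% without subunit peaks within 500 bp, 77.4% with reproducible subunit peaks and 91.2% with Pol II in at least 1 library. With Pol II peaks at −log10 q of at least 5 it was 76.9%. The share in a domain with a SAGA-carrying region was 72.4% without subunit peaks within 500 bp and 68.2% with reproducible subunit peaks. With Pol II in at least 1 library this share was 71.6%.

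Leaving out 1 library, the number of regions ran from 1263 to 2757 (without Non-stop 1924_1), the share with Pol II from 62.9% (without Non-stop 1924_1) to 90.3%, and the share in a domain with a SAGA-carrying region from 46.2% (without Pol II 1188_2) to 78.5%. The Non-stop difference ran from -49.3 to -42.8 and the Pol II difference from -11.7 to -1.91 percentile points. The median width ran from 365 to 771 bp. The distance to a subunit peak ran from 1279.5 to 1390 bp, and between summits it was 2085 bp. For the 1721 regions of the reproducible rule it was 705 bp, taken to any subunit peak. The summit distance, a mean of 1525 bp over library pairs, ran from 904 to 1923 bp. Between peak centres it was 761 bp. The cause of the changes was not tested, other than that looser and stricter rules change counts by construction. Between antibodies, no paired analysis was possible because Non-stop shares no library number with Ada2b, Spt3 or Pol II. Non-stop 1924_2 and Sgf11 1924_2 share a number, as do libraries of Ada2b and Spt3, and no test compared these. The strength differences were taken between classes of regions within each library, so their sign-flip test was paired by library. Unknown depth limits every statement on absence.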

Other observations

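A Pol II summit of both libraries lay inside 127 of the SAGA-free Pol II regions. Their median width was 614 bp, their median Pol II domain 1360 bp, and the nearest subunit peak was at a median of 2934 bp. Non-stop ranked at median percentiles of 31.9 in 1924_1 and 32.7 in 1924_2, and Pol II at 49.4 in 1188_2 and 52.6 in 1632_1. These were chosen by the place of the Pol II summit after the data were seen, and no test was made.

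The 143 Non-stop regions that had no subunit peak and Pol II in a single library were narrower than those with Pol II in both, with a median of 477 bp against 767 bp among the SAGA-free Pol II regions. The nearest subunit peak was at a median of 2036 bp. In 128 of these 143 regions the library with the peak was 1188_2, and in 15 it was 1632_1.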
